A study of Mus musculus with 9 samples.

Results

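The S100 proteins S100a8, S100a9, S100a4, S100a6, S100a10 and S100a11, the annexins Anxa1, Anxa2 and Anxa3 and the giant scaffold gene Ahnak were followed. All arrays of a study of MLP29 cells, a line of mouse liver progenitor cells, were used. The 10 genes were chosen on results of the same arrays, so their values are descriptions, and a probe set was taken as a member where its annotation names 1 of these genes alone. That gave 15 of the 22626 probe sets analysed, for 9 of the 10 genes. S100a11 was outside the rule, because its probe set also names a pseudogene and a predicted gene. RNA was measured on 9 Affymetrix Mouse430A_2 arrays, from 3 experiments with each of 3 conditions once. The conditions were functional blockade of α5β1 integrin, the fibronectin receptor, with an anti-α5β1 integrin antibody (clone BMB5, 10 μg/ml), stimulation with HGF/SF1 at 20 ng/ml, which binds the receptor Met, and no treatment. All cells had been starved in 0.1% FBS for at least 16 h, and treatments lasted 24 h. The labels call the untreated cells only a control. The methods of the study mention a control IgG and solvents for control experiments without naming the assays, so whether these cells received any of them is not known here. The labels do not say whether the arrays of a condition came from separately thawed cultures, so the spread is that between these samples. Each probe set has 1 value per array on the log2 scale, and a difference of 1 is a 2-fold change.

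S100 proteins are small EF-hand proteins, and most of them bind calcium and then dock onto target proteins. S100a8 and S100a9 form the heterodimer calprotectin, which binds zinc and manganese, is stored in large amounts in neutrophils and acts outside the cell on the receptors Tlr4 and RAGE. Annexins bind acidic phospholipids in a calcium-dependent way, and S100a10 (p11) joins annexin A2 in a heterotetramer that binds plasminogen at the cell surface and recruits Ahnak to the plasma membrane.

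S100a8 and S100a9 are neighbouring S100 genes in the S100 cluster of chromosome 3, 22.6 kb apart, and face each other on opposite strands, with starts 26.65 kb apart (GRCm38.p6). S100a8 spans positions 90669071 to 90670034 and S100a9 positions 90692630 to 90695721. The cluster from S100a1 to S100a9 holds 11 S100 genes of the lists used here within 184.7 kb, among them S100a4 (90603770 to 90606045) and S100a6 (90612894 to 90614414). S100a11 (93520496 to 93526288) and S100a10 (93555117 to 93564645) lie on the same chromosome, 2.82 Mb or more farther on. Anxa3 is on chromosome 5, Anxa2 on chromosome 9, and Anxa1 and Ahnak are on chromosome 19. The 250 bases before the annotated start are printed for S100a8 and S100a9, the members that differed most between conditions, for S100a4 and Anxa2, which were bright and not called in any comparison, and for Ahnak, whose probe sets differed among themselves. The sequences are RefSeq's for GRCm38.p6, written 5′ to 3′ on the strand of the gene, and promoters of 8 of the 10 members were matched, with S100a10 and Anxa3 not analysed here. Capitals mark every match to an AP-1 site (TGANTCA), a C/EBP-type site (TTNNGNAA) or a STAT site (TTCNNNGAA), searched on both strands, and to a TATA box (TATAAA), searched on the strand of the gene.
S100a8, chr3:90668821-90669070, plus strand: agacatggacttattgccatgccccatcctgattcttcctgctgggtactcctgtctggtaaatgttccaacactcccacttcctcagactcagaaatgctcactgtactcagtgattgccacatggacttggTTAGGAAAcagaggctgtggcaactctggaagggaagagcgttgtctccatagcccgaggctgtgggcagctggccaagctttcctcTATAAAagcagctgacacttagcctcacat
S100a9, chr3:90695722-90695971, minus strand: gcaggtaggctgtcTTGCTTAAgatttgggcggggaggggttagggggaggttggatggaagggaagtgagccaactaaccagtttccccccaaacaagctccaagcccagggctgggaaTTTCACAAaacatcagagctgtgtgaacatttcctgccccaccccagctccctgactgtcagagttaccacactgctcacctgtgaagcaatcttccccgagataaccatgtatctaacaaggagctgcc
S100a4, chr3:90603520-90603769, plus strand: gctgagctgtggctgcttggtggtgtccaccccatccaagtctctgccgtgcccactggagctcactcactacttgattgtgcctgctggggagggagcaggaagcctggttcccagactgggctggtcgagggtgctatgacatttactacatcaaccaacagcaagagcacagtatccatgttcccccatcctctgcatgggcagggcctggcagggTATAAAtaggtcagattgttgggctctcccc
Anxa2, chr9:69453433-69453682, plus strand: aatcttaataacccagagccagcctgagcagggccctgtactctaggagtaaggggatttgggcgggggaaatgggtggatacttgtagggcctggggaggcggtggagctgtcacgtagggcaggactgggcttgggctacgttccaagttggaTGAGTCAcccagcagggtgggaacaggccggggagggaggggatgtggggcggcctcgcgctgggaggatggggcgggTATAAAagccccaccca
Ahnak, chr19:8989034-8989283, plus strand: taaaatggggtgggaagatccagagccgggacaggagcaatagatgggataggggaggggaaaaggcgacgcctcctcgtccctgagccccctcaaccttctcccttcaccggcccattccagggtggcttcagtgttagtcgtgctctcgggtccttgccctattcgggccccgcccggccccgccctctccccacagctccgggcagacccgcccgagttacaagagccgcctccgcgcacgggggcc

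The S100a8 window held a TATA box from base -30, counted from the start, and a C/EBP-type match from base -117. The S100a9 window held C/EBP-type matches from bases -236 and -130 and no TATAAA. Anxa1 had 1 C/EBP-type match, and S100a4, S100a6, S100a11, Anxa2 and Ahnak had none, so 3 of 8 members held this motif, beside 36.9% of all 27025 promoters. AP-1 matches stood in 2 of 8 members, Anxa2 (from base -95) and S100a11 (from bases -136 and -38), beside 6.87% of all promoters. TATA boxes stood in S100a4, Anxa1, Anxa2 and S100a8, 4 of 8, beside 8.12%, and no member held a STAT match, beside 7.18%. No motif overlapped another in the printed windows.

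Some member transcripts varied strongly over the arrays and others hardly varied. The highest and the lowest of the 9 arrays differed by 5.66 for S100a9 and by 4.92 for S100a8, and only 0.0133% and 0.0530% of all probe sets varied more. At the other end stood S100a6, with a range of 0.19 that 98.1% of all probe sets exceeded. The probe sets of S100a10, Anxa1, Anxa2 and Anxa3 had ranges from 0.28 for Anxa3 to 0.52 for Anxa1. S100a4 lay between, with a range of 0.79 that 40.1% of all probe sets exceeded.

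**Figure D1:**
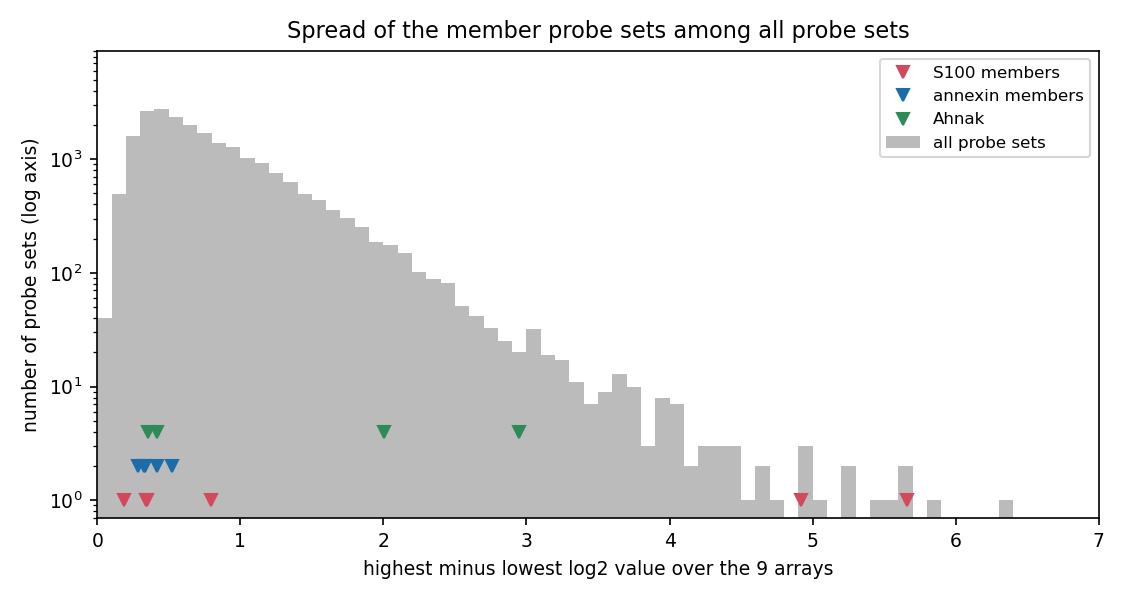
Number of probe sets (log axis) by the highest minus the lowest log2 value over the 9 arrays, with triangles at the 15 member probe sets. S100a8 (4.92) and S100a9 (5.66) lie in the far tail, 2 Ahnak probe sets are at 2.01 and 2.95, and the other members have ranges of at most 0.79, that of S100a4.

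Of the 15 member probe sets, 3 were called higher after blockade of α5β1 integrin than in untreated cells at an unadjusted p under 0.05, the threshold of the study, and none was called lower. They were S100a9 and 2 probe sets of Ahnak. Over all probe sets, 4.53% were called higher and 7.29% lower in this comparison, and nothing is read from the members' count because results of these arrays chose them. At an adjusted p under 0.05 (limma, Benjamini-Hochberg) no member probe set was called, beside 0.0221% of all probe sets, and with the experiment as a fixed block 1 was, beside 24 of 22626. All 3 antibody arrays lay above all 3 untreated arrays for 4 member probe sets, S100a8 included, beside 5.8% of all probe sets. The median difference was 0.00 over the member probe sets and 0.00 over all probe sets.

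**Figure D2:**
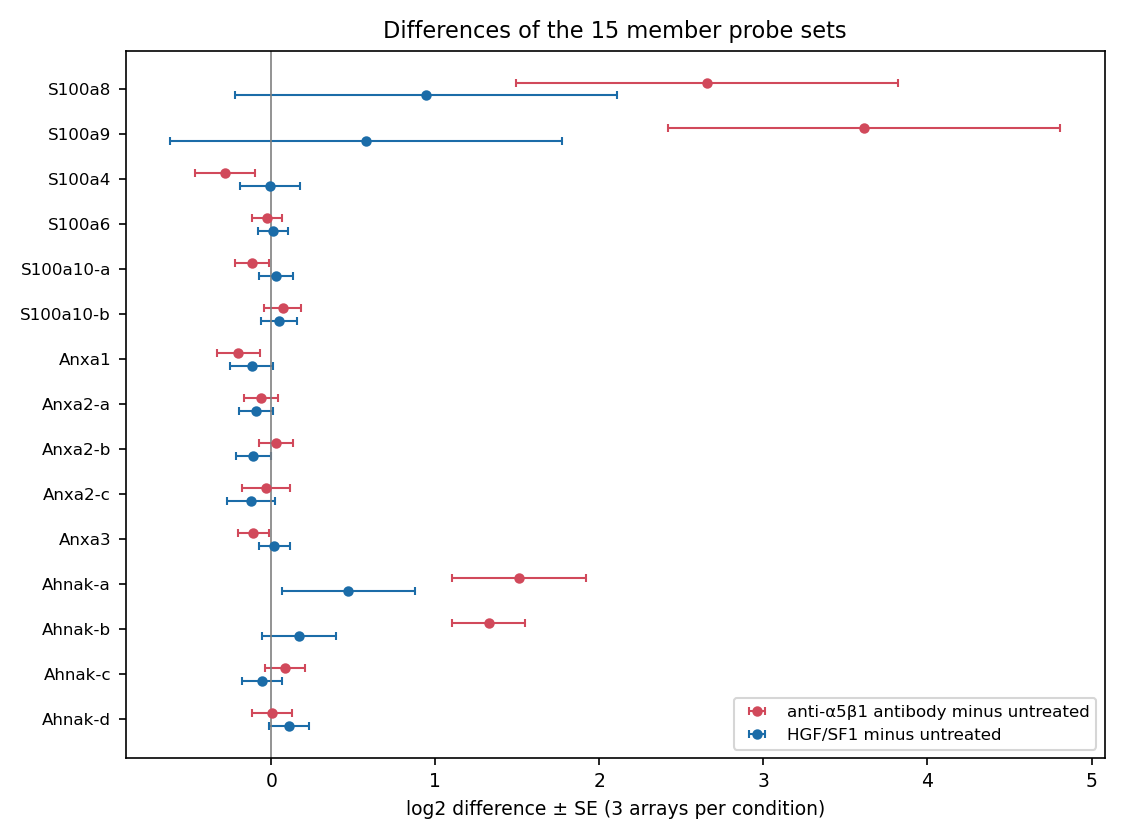
Difference of the group means (log2, x axis) with its SE for each of the 15 member probe sets (letters number the probe sets of a gene in the order of their identifiers), antibody minus untreated above HGF/SF1 minus untreated, 3 arrays per condition. S100a9 (3.61), S100a8 (2.65) and 2 Ahnak probe sets (1.51 and 1.32) lie right of 0 after the antibody, and the next largest value after the antibody in either direction is that of S100a4 (-0.28).

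S100a9, the larger subunit of calprotectin, measured 9.74, 9.70 and 10.46 in experiments 1, 2 and 3 after the antibody, 7.00, 4.92 and 8.87 after HGF/SF1, and 5.38, 4.80 and 8.88 in untreated cells. The antibody arrays were close together and all above the others, whereas experiment 3 was far above experiments 1 and 2 in HGF/SF1 and untreated cells. The means were 9.97 ± 0.43 after the antibody, 6.93 ± 1.97 after HGF/SF1 and 6.35 ± 2.20 in untreated cells (SD, n = 3 each). Antibody minus untreated was 3.61 (SE 1.19), a 12.2-fold difference, and antibody minus HGF/SF1 was 3.04 (SE 1.19), or 8.20-fold. Within experiments, antibody minus untreated was 4.36, 4.90 and 1.59, so the direction was shared and the size was smallest in experiment 3, where the untreated level was already high. The call against untreated cells was lost without the untreated array of experiment 1 (3.13) or 2 (2.84) and without all arrays of experiment 1 (3.24) or 2 (2.97). The call against HGF/SF1 was lost when any antibody array was left out (3.15, 3.17 and 2.79 without that of experiments 1, 2 and 3), when an HGF/SF1 array was left out (3.07 without that of experiment 1, 2.03 without that of experiment 2) and without experiment 1 (3.19) or 2 (2.17).

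S100a8, the partner of S100a9 in calprotectin, measured 10.75, 10.05 and 10.42 after the antibody, 10.76, 6.20 and 9.13 after HGF/SF1, and 8.16, 5.84 and 9.26 in untreated cells. Its antibody arrays again lay above every untreated array, but the HGF/SF1 array of experiment 1 was as high as the antibody array of that experiment. Antibody minus untreated was 2.65 (SE 1.17), or 6.30-fold, and was 2.59, 4.21 and 1.16 within experiments 1, 2 and 3. It did not pass the threshold with a mean per condition, and it did with the experiment as a fixed block and under 9 of 18 alternatives in all, among them those without the untreated array of experiment 3 (3.41), without experiment 2 (1.87) and without 1 HGF/SF1 array, that of experiment 1 or of experiment 2 (2.65 each). The probe set carries the suffix that Affymetrix gives where probes can match more than 1 transcript, although its annotation names S100a8 alone.

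HGF/SF1 against untreated cells gave no called member probe set, beside 0.849% of all probe sets called in either direction. At an adjusted p under 0.05 (limma), 0% of all probe sets passed. S100a9 differed by 0.58 (SE 1.19), with 1.62, 0.12 and -0.01 in experiments 1, 2 and 3, and S100a8 by 0.94 (SE 1.17), with 2.60, 0.36 and -0.12. For both genes experiment 1 gave the largest HGF/SF1 difference. Without experiment 1 the differences were 0.12 for S100a8 and 0.06 for S100a9, and that of S100a8 was 2.19 and passed the threshold when the HGF/SF1 array of experiment 2 was left out.

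The HGF/SF1 array of experiment 1 also stood apart from the other arrays over all probe sets, as the highest of 9 by over 1 for 68 probe sets and the lowest by over 1 for 84, against at most 40 and 25 on any other array. With that array left out, HGF/SF1 minus untreated was -0.09 for S100a8 and 0.54 for S100a9. Antibody minus HGF/SF1 was 1.71 (SE 1.17) for S100a8, and without that array it was 2.74 and passed the threshold.

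Ahnak encodes a very large scaffold protein that binds S100a10 and annexin A2 beneath the plasma membrane. Its 4 probe sets, here Ahnak-a to Ahnak-d in the order of their identifiers, did not give the same result. Ahnak-b measured 7.18, 7.25 and 7.88 after the antibody, 6.03, 6.30 and 6.52 after HGF/SF1, and 5.88, 6.06 and 6.40 in untreated cells, so that the antibody arrays were above all others. Ahnak-a, designed on the same cDNA record, measured 7.56, 8.08 and 8.95 after the antibody, 6.90, 6.98 and 7.60 after HGF/SF1, and 6.01, 6.90 and 7.16 in untreated cells. Here the antibody arrays were above every untreated array, and the lowest of them was just below the highest HGF/SF1 array.

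Antibody minus untreated was 1.32 (SE 0.22) for Ahnak-b, with 1.31, 1.19 and 1.48 within experiments. It was 1.51 (SE 0.41), or 2.85-fold, for Ahnak-a, with 1.56, 1.18 and 1.79 within experiments. These differences kept their call under all 18 alternatives. Antibody minus HGF/SF1 was 1.15 (SE 0.22) for Ahnak-b and 1.04 (SE 0.41) for Ahnak-a, and the call of Ahnak-a was lost without an antibody array (experiment 2, 1.10, or experiment 3, 0.66), an HGF/SF1 array (experiment 1, 0.91, or experiment 2, 0.95) or all of experiment 2 (1.01). HGF/SF1 minus untreated was 0.17 (SE 0.22) and 0.47 (SE 0.41). With the experiment as a fixed block the difference of 0.47 passed the threshold. It was the only member call of that comparison, beside 1.82% of all probe sets called in either direction.

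The brightest Ahnak probe set, Ahnak-d, measured 12.56, 12.56 and 12.53 after the antibody, 12.84, 12.63 and 12.48 after HGF/SF1, and 12.49, 12.42 and 12.71 in untreated cells. The conditions overlapped fully, and antibody minus untreated was 0.00 (SE 0.12). The dimmest, Ahnak-c, lay between 3.62 and 3.97 on all arrays, below the median brightness of 6.02, and differed by 0.08 (SE 0.12). Which parts of the Ahnak transcripts the probe sets cover was not analysed here, so the probe sets are given separately and no single value stands for the gene.

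**Figure D3:**
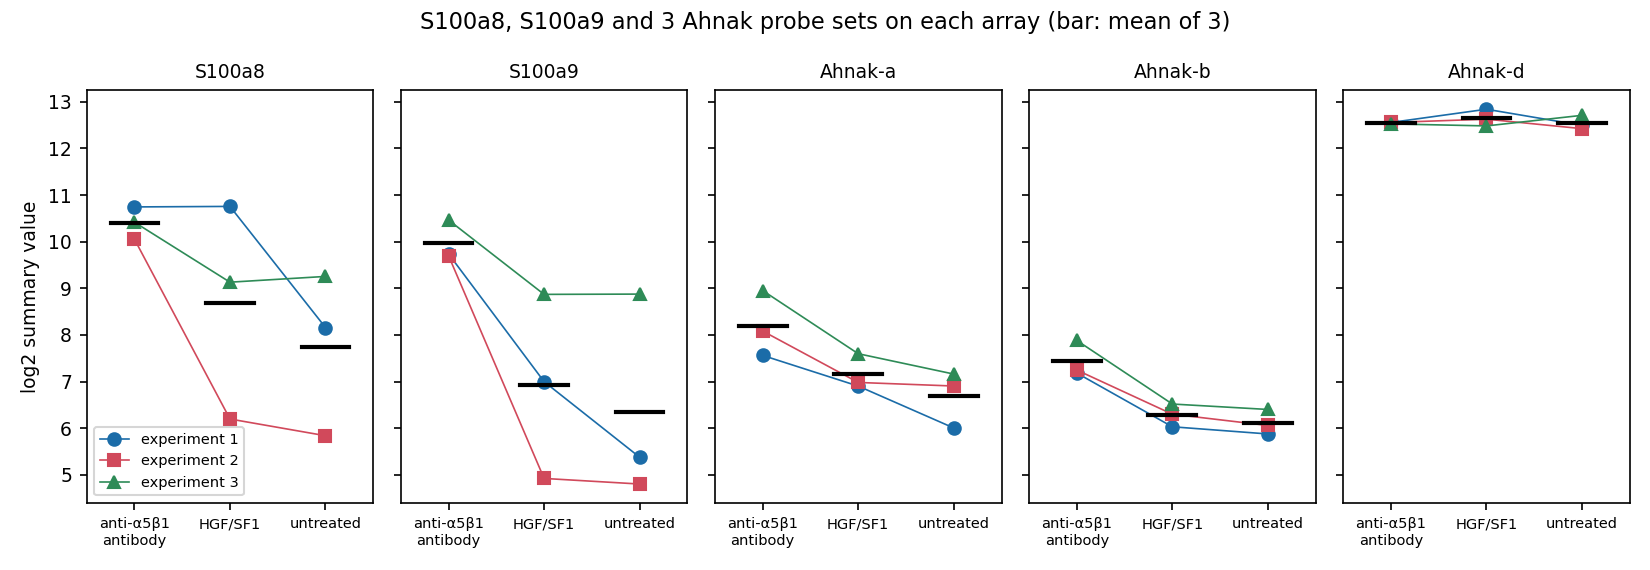
Log2 value on each array for S100a8, S100a9 and 3 of the 4 Ahnak probe sets, by condition, with a line and symbol per experiment and a bar for each condition's mean (n = 3); levels of different probe sets are not comparable. The antibody arrays of S100a9 lie between 9.70 and 10.46, above all others, Ahnak-a and Ahnak-b are highest on antibody arrays on average, and the last panel shows the brightest Ahnak probe set, Ahnak-d.

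Against HGF/SF1, the antibody gave the same 3 called member probe sets, S100a9 and the 2 Ahnak probe sets, beside 5.2% of all probe sets called higher and 7.96% called lower. The comparison shares its antibody arrays with that against untreated cells. No member was called at an adjusted p under 0.05 (limma), beside 0.0221% of all probe sets, and with the block 1 was, beside 242 of 22626. In both comparisons it was an Ahnak probe set, Ahnak-b.

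S100a4, S100a6, S100a10, Anxa1, Anxa2 and Anxa3 hardly differed between conditions. Over their 9 probe sets, antibody minus untreated ran from -0.28 to 0.07, HGF/SF1 minus untreated from -0.12 to 0.05 and antibody minus HGF/SF1 from -0.27 to 0.13, with SEs of at most 0.18. None was called in any comparison. Most of these genes were near the top of the scale, since the highest value of each array lay between 14.21 and 14.29, and whether signal saturation narrowed their differences was not tested.

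S100a4, known from motile and metastatic cells and a binder of non-muscle myosin, measured 13.47, 12.68 and 12.96 after the antibody, 13.21, 13.33 and 13.39 after HGF/SF1, and 13.30, 13.34 and 13.30 in untreated cells. The antibody arrays of experiments 2 and 3 were below every other array and that of experiment 1 was above them all. Antibody minus untreated was -0.28 (SE 0.18), and without the antibody array of experiment 1 it was -0.50 and passed the threshold. Without that array the member count against untreated cells was 5, with Anxa1 (-0.31) and S100a4 called lower. The share of all probe sets called without that array is not given here, so nothing is read from this count.

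S100a6 (calcyclin), a growth-associated S100 protein, was the steadiest member, with 13.81, 13.84 and 13.88 after the antibody, 13.80, 13.98 and 13.86 after HGF/SF1 and 13.89, 13.93 and 13.79 in untreated cells. Its antibody minus untreated difference was -0.03 (SE 0.09). The 2 probe sets of S100a10, the annexin A2 partner, differed by -0.12 (SE 0.10) and 0.07 (SE 0.11), and neither separated the conditions.

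Anxa2, the annexin that joins S100a10, measured 13.38, 13.38 and 13.28 after the antibody, 13.15, 13.38 and 13.43 after HGF/SF1 and 13.37, 13.48 and 13.38 in untreated cells with its brightest probe set. The conditions overlapped, with antibody minus untreated at -0.06 (SE 0.10), and its dimmer probe sets differed by 0.03 (SE 0.10) and -0.03 (SE 0.15). The dimmest, at 0.03, lay between 3.22 and 3.55 on all arrays, so its value says little about a change. Anxa1, an annexin that dampens inflammation through formyl peptide receptors, measured 12.53, 12.28 and 12.12 after the antibody, 12.28, 12.49 and 12.41 after HGF/SF1 and 12.42, 12.64 and 12.47 in untreated cells. Its difference was -0.20 (SE 0.13), with 0.11, -0.36 and -0.35 in experiments 1, 2 and 3, so the experiments did not share a direction. Anxa3 differed by -0.11 (SE 0.09), between 12.64 and 12.93 on all arrays.

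The other S100 genes and annexins, from a list written from general knowledge of the families, were set beside the members, with the brightest probe set of each gene. Of 19 genes 16 were measured, and 2 rose and 1 fell after the antibody, beside 4.68% of all genes called higher and 7.92% lower. None of these passed an adjusted p under 0.05 (limma). S100a16, an S100 protein of broad distribution, measured 10.49, 10.35 and 10.82 after the antibody and 9.98, 10.18 and 10.18 in untreated cells, a difference of 0.44 (SE 0.16, adjusted p = 0.324 by limma), higher in 3 of 3 experiments. S100a14, an epithelial S100 protein, measured 5.28, 4.80 and 5.78 after the antibody and 5.02, 4.31 and 4.32 in untreated cells, so the groups overlapped. It differed by 0.74 (SE 0.31, adjusted p = 0.4 by limma) and was dim, below the median brightness of 6.02 on all arrays.

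Anxa4, an annexin of epithelial cells, fell, with 11.91, 11.45 and 11.40 after the antibody and 12.26, 12.10 and 11.83 in untreated cells. The difference was -0.47 (SE 0.17, adjusted p = 0.327 by limma), lower in 3 of 3 experiments. These 3 calls rested on few arrays. That of S100a16 was lost without the antibody array of experiment 3 (0.31), the untreated array of experiment 1 (0.38), experiment 1 (0.41) or experiment 3 (0.34), and that of Anxa4 without the antibody array of experiment 2 (-0.41) or 3 (-0.38), the untreated array of experiment 1 (-0.38) or 2 (-0.46) or experiment 2 (-0.39). That of S100a14 was lost without the antibody array of experiment 1 (0.74) or 3 (0.49), 1 HGF/SF1 array (experiment 2 or 3, 0.74 each), the untreated array of experiment 2 or 3 (0.62 each), experiment 2 (0.86) or experiment 3 (0.38).

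Against HGF/SF1, S100a16 alone rose, by 0.59 (SE 0.16, adjusted p = 0.196 by limma), beside 5.19% of all genes called higher and 8.96% lower, and with the experiment as a fixed block 3 genes were called, S100a14 and S100a16 higher and Anxa4 lower, beside 8.73% of all genes higher and 11.6% lower. HGF/SF1 against untreated cells gave none of the 16, beside 0.839% of all genes. Anxa7 gave opposite results with its 3 probe sets, -0.62 (SE 0.23), -0.11 (SE 0.26) and 0.52 (SE 0.22) for antibody minus untreated. Anxa5 and Anxa8, bright like the annexins of the main group, differed by -0.10 (SE 0.17) and -0.08 (SE 0.16).

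Along the chromosome 3 cluster, 10 of the 11 S100 genes from S100a1 to S100a9 were measured. S100a8 and S100a9 had the largest differences after the antibody. S100a7a, the gene next to S100a8 on the side of S100a6, was not measured. The next measured genes were S100a6 at -0.03 (SE 0.09), S100a5 at 0.07 (SE 0.23) and S100a4 at -0.28 (SE 0.18). S100a5 was dim, between 3.60 and 4.41 on all arrays, so its value says little about a change. At the far end, S100a1 and S100a13 differed by -0.27 (SE 0.17) and -0.25 (SE 0.30). S100a3 differed by 0.49 (SE 0.26) and was not called.

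**Figure D4:**
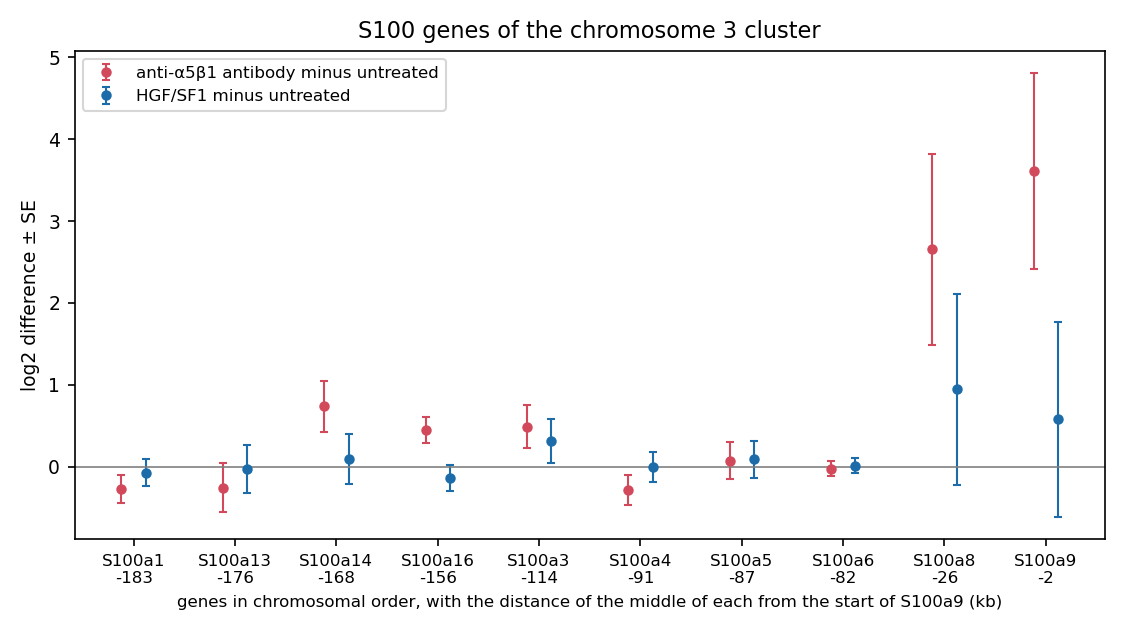
Log2 difference from untreated cells with its SE (y axis) for the 10 measured S100 genes of the cluster, in chromosomal order with the distance of each gene's middle from the start of S100a9 in kb, antibody left of HGF/SF1. S100a8 (2.65) and S100a9 (3.61) stand above the other genes, which lie between -0.28 and 0.74 after the antibody.

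Genes that encode receptors, partners and targets of the members were counted from lists written in the same way. Of 51 genes 40 were measured. By their brightest probe sets 1 rose after the antibody and none fell, beside 4.68% of all genes called higher and 7.92% lower. With the experiment as a fixed block 4 rose and none fell, beside 7.81% and 10.7% of all genes. The gene called without the block was Pla2g4a, the cytosolic phospholipase A2 that annexin A1 and the S100a10 complex are known to inhibit. It measured 8.69, 9.52 and 9.22 after the antibody, 7.89, 8.01 and 8.26 after HGF/SF1 and 7.76, 7.86 and 8.32 in untreated cells, so every antibody array was above every other. Antibody minus untreated was 1.16 (SE 0.23, adjusted p = 0.171 by limma) and antibody minus HGF/SF1 was 1.09 (SE 0.23, adjusted p = 0.135 by limma), higher in 3 of 3 experiments in each case. With the block, Plat (0.44, SE 0.12), Plaur (0.47, SE 0.14) and Cav2 (0.26, SE 0.10) were also called higher, each in 3 of 3 experiments. Plat is tissue plasminogen activator, which the annexin A2 and S100a10 complex binds, and Plaur is the urokinase receptor. Sugt1, of the same lists, was not called by its brightest probe set (0.07, SE 0.16), while its other probe set differed by -0.64 (SE 0.18).

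Against HGF/SF1, 2 of the 40 genes rose and 1 fell, beside 5.19% of all genes called higher and 8.96% lower, and with the block 4 rose and 1 fell, beside 8.73% and 11.6%. Besides Pla2g4a, Cav2, a caveolin, rose by 0.43 (SE 0.13, adjusted p = 0.235 by limma), although its other probe set differed by -0.10, and the call was lost with the mean of its probe sets (0.17) and without experiment 1 (0.44). Tlr4, a receptor for calprotectin, fell, with 7.90, 8.07 and 7.25 after the antibody and 8.86, 8.11 and 8.37 after HGF/SF1, by 0.71 on the log2 scale (SE 0.25, adjusted p = 0.275 by limma). Its call was lost without the antibody array of experiment 3 (-0.46), that of HGF/SF1 in experiment 1 (-0.50), experiment 1 (-0.58) or experiment 3 (-0.50). With the block, Plat (0.73, SE 0.12, adjusted p = 0.0491) and Pla2g4a (adjusted p = 0.0483) passed the adjusted threshold of limma against HGF/SF1. HGF/SF1 against untreated cells gave none of the 40, beside 0.839% of all genes, and with the block Plat alone was called, at -0.30 (SE 0.12), beside 1.66%.

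By list, the receptors of secreted S100 proteins and annexin A1 gave 0 higher and 0 lower of 7 measured after the antibody, protein partners and targets 1 higher of 13, plasma membrane repair genes and ferlins 0 of 12, and the channels and receptors that S100a10 carries to the membrane 0 of 8, beside the 4.68% of all genes called higher and 7.92% lower. Median differences of the 4 lists were -0.17, 0.07, -0.03 and 0.06, beside 0.00 over all probe sets. Every measured gene of the last list lay below the median brightness of 6.02, so its count and median say little about a change. Ager, which encodes RAGE, and Fpr2 were dim on all arrays, with mean values of 4.55 and 3.50 after the antibody and 4.63 and 3.47 in untreated cells.

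Because calprotectin is best known from myeloid cells, markers of other cell types were read on the same arrays. Of the 10 measured neutrophil markers, only Ltf was above the median brightness, and Elane, Mpo, Ngp, Camp, Csf3r, Cxcr2, Prtn3, Mmp8 and Mmp9 lay between 3.52 and 4.62 on all arrays. Ltf measured 8.02, 8.24 and 9.52 after the antibody, 5.87, 8.07 and 8.79 after HGF/SF1 and 5.62, 8.47 and 8.99 in untreated cells. The summed neutrophil list ran from 391 to 864 after the antibody, 202 to 574 after HGF/SF1 and 185 to 641 in untreated cells, as linear values.

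None of 9 leukocyte markers was above the median brightness on average over the arrays, with Ptprc (CD45) between 3.02 and 3.38. Their sum ran from 166 to 172 after the antibody, 170 to 262 after HGF/SF1 and 178 to 279 in untreated cells. Cd53 was lower after the antibody, at 4.89, 4.87 and 4.46, than in untreated cells, at 7.10, 5.35 and 5.59. The difference was -1.27 (SE 0.56) and was not called, with 6.85, 5.17 and 5.08 after HGF/SF1. Lcp1 (L-plastin) was the leukocyte marker called higher, at 3.93, 4.21 and 4.53 after the antibody, 3.90 on each HGF/SF1 array and 3.87, 4.03 and 3.53 in untreated cells, a difference of 0.41 (SE 0.17) whose part in the S100a8 and S100a9 values was not tested. Of 9 macrophage and monocyte markers, Cd68, a lysosomal protein, was called higher after the antibody, by 2.60 (SE 0.65). It measured 6.66, 8.15 and 9.47 after the antibody, 5.77, 5.43 and 6.49 after HGF/SF1 and 5.12, 5.20 and 6.17 in untreated cells. Its antibody value was highest in experiment 3, as was that of S100a9 (10.46). The sum of that list ran from 296 to 879 after the antibody, 230 to 340 after HGF/SF1 and 213 to 239 in untreated cells, and its part in the S100a9 result was not tested, while Adgre1, Csf1r, Lyz2 and Itgam stayed between 3.40 and 5.42. Of 10 measured markers of the labelled cell type, 7 were above the median brightness, among them Krt8, Krt18, Krt19 and Cdh1, whereas Epcam (4.09 to 4.60), Sox9 (4.61 to 6.44) and Prom1 (3.93 to 5.98) were dim, as were the hepatocyte genes Alb and Afp. In bulk RNA, a larger share of cells with a transcript and more of it per cell cannot be told apart.

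The genes closest to S100a9 over the 9 arrays, by the root mean square difference of values centred on their means, were Ccl7, Il6, Ptgs2, Cxcl1 and Csf3, with differences from 1.03 to 1.16 among 6722 genes above the median brightness. They encode a monocyte chemokine, interleukin 6, the inducible cyclooxygenase, a neutrophil chemokine and granulocyte colony-stimulating factor. S100a8 was at place 7, with 1.20, and the remaining members were at 2.12 or more, each by its brightest probe set. For Ahnak that was Ahnak-d, and Ahnak-a and Ahnak-b were not compared with S100a9. All 5 genes averaged more after the antibody than in the other conditions, and all were higher in experiment 3 than in experiments 1 and 2 in untreated cells, like S100a9. For example, Csf3 measured 10.70, 10.00 and 10.47 after the antibody, 7.92, 8.32 and 9.73 after HGF/SF1 and 7.90, 7.93 and 10.01 in untreated cells. The 5 genes were picked for their closeness to S100a9 on these same arrays, so the shared pattern follows from that choice. The likeness is a description over arrays that share their experiments.

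**Figure D5:**
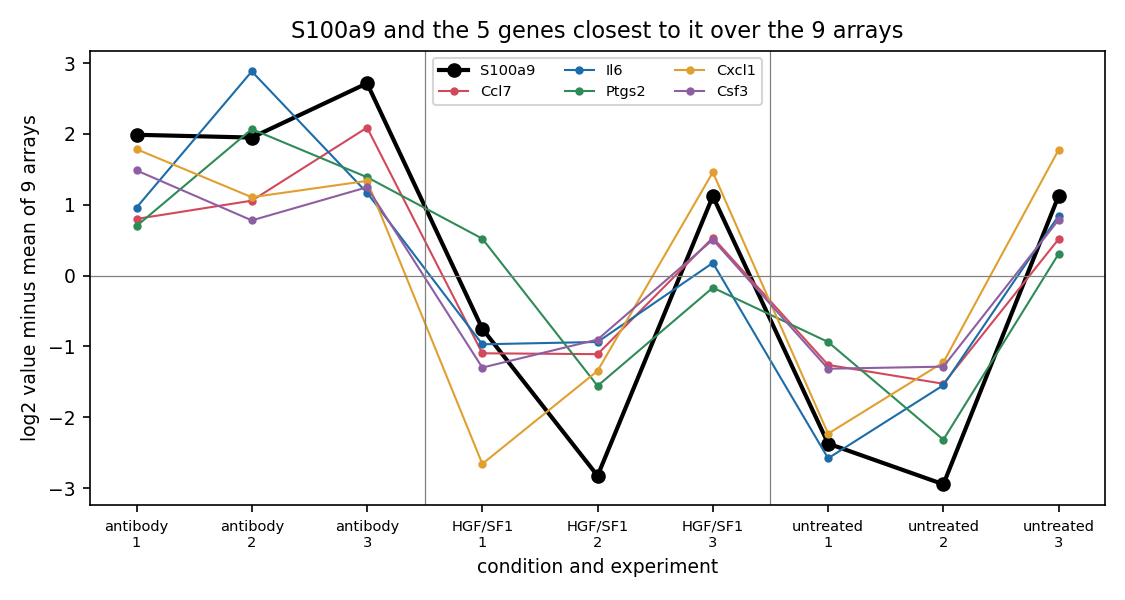
Log2 value minus the mean of the 9 arrays (y axis) for S100a9 (black) and the 5 genes closest to it, by condition and experiment. The antibody arrays are above the mean for all 6 genes, and the arrays of experiment 3 are the highest of the untreated cells.

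Genes closest to Anxa2 were Arf1, Pkm, Sart3, Usp4 and Cttn, with differences of 0.05 to 0.06, and genes closest to the brightest Ahnak probe set were Krit1, Setd1a, Arih2, Serpinb9b and Grb2, with 0.07 to 0.08. The profiles of Anxa2 and of this Ahnak probe set were nearly flat.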

How the data were processed

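The 9 arrays were handled as 1 set by the authors in affylmGUI, with the rma method for background, and the deposited log2 values have 1 number per probe set and array; the normalization between arrays and the summary per probe set are not given in the sources used here. Medians of the arrays lay between 5.91 and 6.08, so values were used as deposited. Of 22690 probe sets, 64 controls were left out, and 20380 of the 22626 analysed name 1 gene (12393 genes). Symbols and positions came from RefSeq for GRCm38.p6, and 20351 probe sets matched.

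For all 22626 probe sets, limma 3.58.1 (R 4.3.3) estimated 1 mean for each condition with eBayes, after it had been tested on simulated data, with two-sided tests and Benjamini-Hochberg adjustment over all of them. Called means an unadjusted p under 0.05. The titles give the arrays 3 shared days, which pair them: after the condition means were taken off, correlations within an experiment lay between 0.0958 and 0.591 and those across experiments (different conditions) between -0.484 and 0.0308. The number of arrays limits the precision, and an array has no read depth.

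Members, lists, tests and alternatives were chosen with earlier results of these data known. Each list gene took its brightest probe set. Named were all member probe sets, up to 6 genes per list and comparison past the unadjusted threshold, those past the adjusted one and the 5 genes closest to S100a9, Anxa2 and Ahnak. Plat, Plaur, Sugt1, Anxa5, Anxa7, Anxa8, the cluster genes, Ager, Fpr2, Lcp1, Cd53, Cd68, Lor and Sprr1a were named after their values were seen. Alternatives were the experiment as a fixed or random block, median centring, quantile normalization, a filter on dim probe sets, an intensity trend with robust eBayes, the mean of a gene's probe sets, and leaving out each array or experiment.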

Additional observations from a re-analysis of the deposited data

How the results depend on the processing

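With the experiment as a fixed replicate block, the partner and receptor genes called were 4 after the antibody against untreated, 1 for HGF/SF1 against untreated and 5 for antibody against HGF/SF1. Of all genes, 18.5%, 1.66% and 20.3% were called in either direction in these comparisons. The other S100 and annexin genes called for antibody against HGF/SF1 were 3. The member probe sets called for HGF/SF1 against untreated were 1, beside 1.82% of all probe sets. As a random block, the values were 3 for the partner and receptor genes after the antibody against untreated and 3 for the other S100 and annexin genes against HGF/SF1. With the mean of a gene's probe sets these 2 counts were 3 and 2. Leaving out an array or an experiment gave 2 to 5 member probe sets, 1 to 4 other S100 and annexin genes and 1 to 4 partner and receptor genes for antibody against untreated, 0 to 1, 0 to 1 and 0 for HGF/SF1 against untreated, and 1 to 3, 1 to 5 and 2 to 6 for antibody against HGF/SF1. Shares of all probe sets or genes called are not given here for the random block, the probe set means or the leave-outs. Nothing is therefore read from those counts, and the cause of these changes was not tested. Median centring, quantile normalization, the filter on dim probe sets and the intensity trend kept every count within 1.5 times its main value. No called difference of a member or a named list gene changed sign under any alternative. The block changed no call among the members after the antibody other than that of S100a8, which passed with it. With 3 arrays per condition, differences of the size seen for S100a4 or Anxa1 are near the spread between arrays.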

Other observations

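The probe set that names S100a11 together with a pseudogene and a predicted gene measured 13.38, 12.88 and 12.92 after the antibody, 13.29, 13.16 and 13.16 after HGF/SF1, and 13.31, 13.19 and 13.05 in untreated cells. The conditions overlapped, and antibody minus untreated was -0.12 (SE 0.15). Signal of S100a11 and of the other loci cannot be told apart in it. The only probe set for Anxa11, which also names 2 predicted genes, measured 7.03, 6.79 and 7.92 after the antibody, 7.43, 7.13 and 7.86 after HGF/SF1, and 7.79, 7.33 and 8.14 in untreated cells, lower after the antibody in 3 of 3 experiments, with differences of -0.76, -0.54 and -0.22.

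Hnf4a, a hepatocyte transcription factor, lay between 8.23 and 10.09 on the 9 arrays, while Alb, Apoa1, Ttr and Cyp2e1 stayed at 5.45 or below. Of the 7 measured squamous epithelial genes, Lor alone was called higher after the antibody, by 0.48 (SE 0.19), beside 4.68% of all genes. Sprr1a measured 5.53, 9.03 and 8.11 after the antibody, 5.51, 4.97 and 7.39 after HGF/SF1, and 5.20, 6.00 and 7.13 in untreated cells. Its antibody minus untreated difference was 1.45 (SE 0.97) and was not called. The others differed by -0.13 (Krt5) to 0.41 (Krt14).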
